A study of Mus musculus with 4 samples.

Results

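The genes described here are the nuclear-encoded genes of oxidative phosphorylation: the subunits of complexes I to IV of the respiratory chain and of ATP synthase. They were taken by symbol (Ndufa, Ndufb, Ndufc, Ndufs and Ndufv genes, Sdha to Sdhd, Uqcr genes, Cox4 to Cox8 genes and Atp5 genes, without pseudogene names), and by a floor of 10 counts in at least 1 library. This gave 90 of the 24100 genes in the count tables. A further 3 genes with such symbols stayed under the floor. Of the 90, 36 belong to complex I, 4 to complex II, 8 to complex III, 17 to complex IV and 15 to ATP synthase. The remaining 10 carry a matching symbol but are no subunits: the complex I assembly factors Ndufaf1 to Ndufaf8, and Atp5s and Atp5sl. Cox7a2l, a supercomplex factor, and Ndufa4l2, a relative of Ndufa4, are grouped with complex IV but not counted as structural subunits, which number 78.

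The study used translating ribosome affinity purification (TRAP) and RNA sequencing in the prefrontal cortex of Crh-IRES-Cre mice from the Jackson Laboratory, all of them adult males. The line expresses Cre where Crh, which encodes the stress peptide corticotropin-releasing hormone, is active. Polysomes tagged with EGFP were pulled out of the homogenate with an antibody against EGFP, which gave 3 immunopurified (IP) libraries. They were set against 1 Input library of the same tissue. Each library was made from 5 males, all of the same Cre line, and none was treated. The construct that carries EGFP was not given in the sources used here, and Cre reports cells by the activity of the Crh locus, which need not match Crh expression in the adult. Whether the 3 IP libraries stem from different animals is not in the labels, and the p-values below reflect the spread between these libraries alone, part of which may be technical. The comparison asks which messenger RNAs are richer or poorer on the tagged ribosomes than in the whole tissue.

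Complexes I and II pass electrons from NADH and succinate to ubiquinone, complex III passes them on to cytochrome c, and complex IV (cytochrome c oxidase) hands them to oxygen. Complexes I, III and IV pump protons while doing so, and ATP synthase makes ATP from the proton gradient. A handful of core subunits are encoded by mitochondrial DNA, and the rest are nuclear, made in the cytosol and imported, so that only the nuclear ones can be found on cytosolic ribosomes. In cortex, firing neurons draw most of their ATP from this pathway, and fast-spiking interneurons are known for their many mitochondria.

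The Input held 14474529 counts, and IP 1, 2 and 3 held 23548375, 10031072 and 12150980. Levels are given in CPM, counts divided by the library total and a trimmed-mean (TMM) scaling factor, where 1 count is 0.0600 CPM for the Input and 0.0436 to 0.107 CPM for the IP libraries. Crh, which checks the labels, was at 1.32 CPM in the Input against 501, 174 and 193 CPM across IP 1 to 3. Summed levels of 6 markers of the Vip class of interneurons were 77.2 CPM in the Input against 3805 to 6272 CPM in IP, highest in IP 1. For 7 GABAergic markers the sums were 787 CPM and 3704 to 4731 CPM. The 9 markers of excitatory neurons summed to 5288 CPM in the Input against 3286, 6289 and 5006 CPM across IP 1 to 3, mostly through Camk2a, and 6 of the 9 lay below the Input in all 3. For 8 astrocyte markers the sums were 2673 CPM and 1651 to 2832 CPM, mostly through Slc1a2, and 7 of the 8 lay below the Input in all 3, with a median log2 fold of -1.14. Below it in all 3 lay also 5 of 8 oligodendrocyte markers (699 CPM against 323 to 504 CPM; 1 of the 8 above it in all 3) and 6 of 7 microglia markers (83.5 CPM in the Input, and a lower sum in each IP library). Of 5 markers of oligodendrocyte precursors, 3 lay below the Input in all 3 and 2 above it in all 3 (101 CPM against 58.6 to 98.9 CPM). The 9 tested markers of pericytes and mural cells had 4 above the Input in all 3 and none below. Over all 10 listed, the sums were 79.3 CPM and 138 to 362 CPM. For 8 endothelial markers they were 35.3 CPM and 139, 486 and 221 CPM, with all 8 above the Input in every IP library and none at 0. In bulk RNA, fewer cells of a type and less RNA per cell cannot be told apart, and the part of cell mixture in the results below was not tested.

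No transcript of oxidative phosphorylation was called richer or poorer on the tagged ribosomes than in the whole cortex. None of the 89 tested genes passed an adjusted p of 0.05 by edgeR's quasi-likelihood F test, two-sided, against 0.465% of all 14628 genes tested. The lowest adjusted p among them was 0.999992, and none had an unadjusted p under 0.05, against 4.44% of all genes. With DESeq2 2 of them, and with limma-voom 1, had an unadjusted p under 0.05, and again none passed after adjustment. A log2 fold beyond 1 in either direction was fitted for 12.4% of these genes and for 30.5% of all genes. These 2 shares are not matched for level. A mean of at least 5 CPM was reached by 86 of the 89 genes, against 10549 of all 14628. The lowest and highest folds of the 89, -2.24 (Cox4i2) and 1.75 (Ndufa4l2), were of genes with few counts.

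The fitted folds leaned upward by a small amount. Of the 89 genes, 74 (83.1%) had a positive fold, against 54.2% of all genes, and the median log2 fold was 0.46 against 0.083 over all genes. All 3 IP libraries lay above the Input for 39 of the 89 genes (43.8%), where 19.7% of all genes did so. All 3 lay below it for 4 genes (Ndufb9, Sdhd, Cox4i2 and Ndufaf2), or 4.49%, where 24.1% of all genes did so. The other 46 had IP libraries on both sides. Cox4i2 reached the floor of 10 counts in the Input alone (11 counts, and 0, 4 and 0 in IP 1 to 3). Ndufa4l2, among the 39, reached it in the IP libraries alone (6 counts in the Input, and 13, 18 and 14 in IP 1 to 3). The places of these 2 genes are therefore tied to the floor.

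The lean was largest in IP 1. The median log2 ratio to the Input (0.5 CPM added to each level) was 0.72 in IP 1, 0.15 in IP 2 and 0.16 in IP 3, where all genes had medians of -0.066, -0.10 and -0.088. Genes above the Input numbered 79, 53 and 57 of the 89. The highest of the 3 IP levels was in IP 1 for 61.8% of these genes and for 35.2% of all genes. IP 1 was also the deepest library and the one with the highest Vip-class sum. Whether either has a part in its higher ratios was not tested. Without IP 1 the median fold was 0.23, against 0.020 over all genes.

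**Figure D1:**
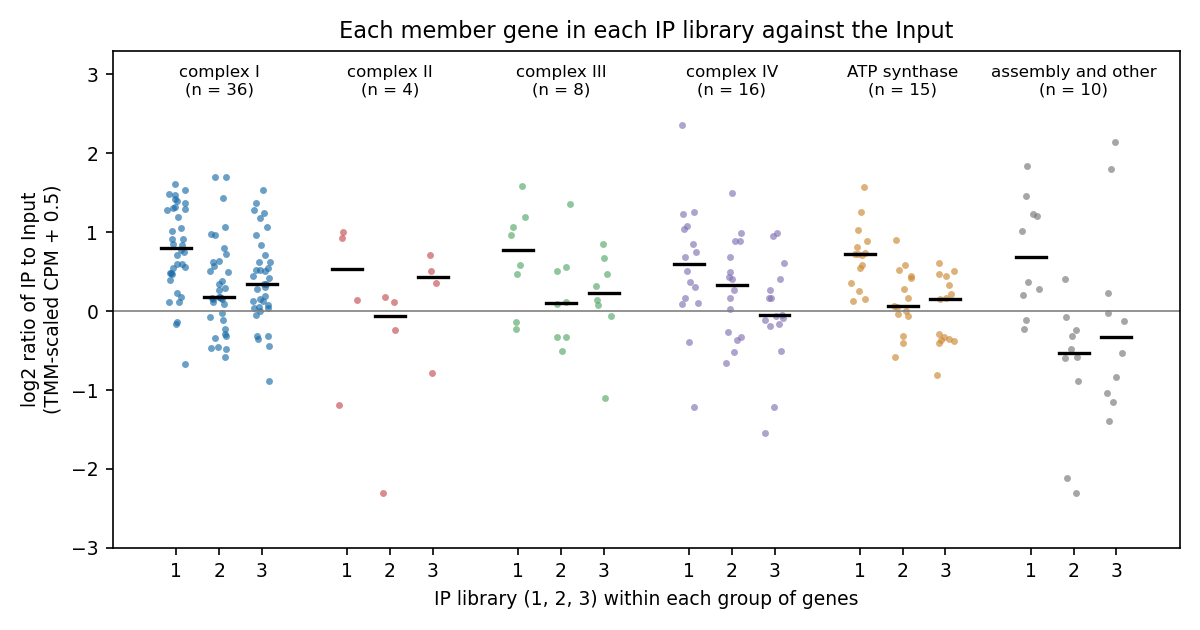
Log2 ratio of each IP library to the Input (vertical axis, 0.5 CPM added to TMM-scaled levels) for the 89 tested genes, by complex and by IP library (1, 2, 3). Points are genes and bars are medians; IP 1 has the highest median in every group, and the assembly genes have medians below 0 in IP 2 and IP 3.

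As a part of all sequenced counts the pathway was small. The 90 genes took 0.760% of the Input's counts (95% exact binomial interval 0.756% to 0.765%, counting error only), and 1.003%, 0.753% and 0.761% in IP 1, 2 and 3. Only IP 1 stood clearly above the Input, and IP 2 and IP 3 lay close to it. The IP mean was 0.839% ± 0.142 (SD, n = 3), which is 0.0787 points over the Input, and -0.00317 points without IP 1. With 1 Input against 3 IP libraries, an exact permutation test cannot go below p = 0.5, two-sided. These shares use no TMM factor. The Input's factor (1.15) is higher than those of the IP libraries (0.933 to 0.975), so a gene with an equal share of counts has a higher CPM in IP than in the Input.

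**Figure D2:**
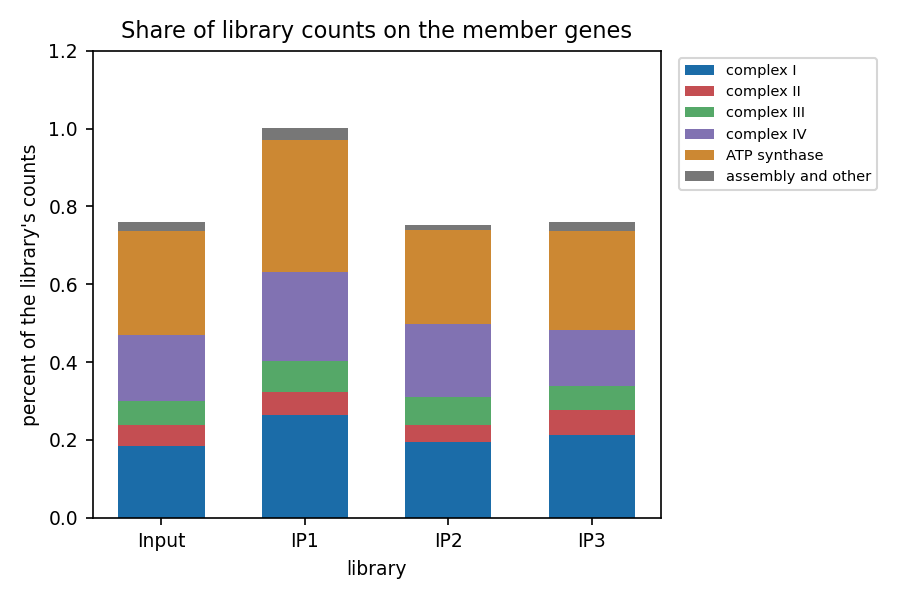
Percent of each library's counts on the 90 genes (vertical axis), stacked by complex, for the Input and the 3 IP libraries. IP 1 reaches 1.003%, and the Input, IP 2 and IP 3 lie between 0.753% and 0.761%.

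Promoters were searched for short motifs known to be read by NRF1, by ETS factors such as GABPA, and by YY1, which are textbook regulators of respiratory genes. RefSeq promoter windows (GRCm38.p6, 250 bases before to 50 after a start) were at hand for 75 of the 90 genes. The NRF1 motif (GCGC, any base, then TGCGC), on either strand, was in the windows of 19 of the 75 genes (25.3%), against 10.5% of 11554 tested genes with a window and 5.19% of all 27025 genes with one. AAGATGGC (YY1) was in 12 (16%), against 4.81% and 3.19%. All of these but Atp5f1 and Atp5j had a match on the gene's own strand after the annotated start. The letters hold ATG, and whether such matches are starts of translation was not tested. CCGGAAGT (ETS) was in 5 (6.67%), against 8.17% and 4.31%. At least 1 of the 3 was there for 34 genes (45.3%), and in none of them did a match of 1 motif overlap a match of another. The windows below are those of genes whose values carry the results by complex: the highest fold of complex I, the highest level and the lowest fold of complex II, 1 of the most abundant genes of complex IV, the least abundant gene of ATP synthase subunit c, and a core subunit with the YY1 letters. Each is 30 bases in the gene's own direction, 5′ to 3′, with the motif in capitals, in Ndufs5, Sdha and Sdhd as it reads from the opposite strand.
Ndufs5, chr4:123718265-123718294, minus strand: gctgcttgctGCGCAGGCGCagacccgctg
Sdha, chr13:74350276-74350305, minus strand: ggggcgtgttGCGCAGGCGCagaatcttcc
Sdhd, chr9:50603909-50603938, minus strand: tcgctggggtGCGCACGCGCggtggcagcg
Cox6a1, chr5:115349101-115349130, minus strand: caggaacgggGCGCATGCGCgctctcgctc
Atp5g2, chr15:102671070-102671099, minus strand: ggctccggccGCGCATGCGCagagccttcc
Ndufs7, chr10:80249462-80249491, plus strand: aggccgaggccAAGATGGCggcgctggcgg
The first 5 lie upstream of the annotated start, and the Ndufs7 letters lie 24 to 31 bases after it. Windows with and without the NRF1 letters went with median log2 folds of 0.48 (19 genes) and 0.43 (55 genes), a description only. A match of letters is not a bound site.

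Complex I, the largest of the complexes and the entry point for electrons from NADH, had the highest share of genes above the Input with TMM scaling. Its 36 genes had a median log2 fold of 0.55, and 33 of them were positive. All 3 IP libraries lay above the Input for 22 of the 36 (61.1%), but for 11 (30.6%) with upper-quartile factors as scaling and for 9 (25%) with library totals alone, where complex III had the same share (2 of 8). The median under these scalings was 0.33 and 0.28. The summed level was 1592 CPM in the Input against 2708, 2084 and 2228 CPM across IP 1 to 3, which is 1.70, 1.31 and 1.40 times the Input. The 7 core subunits, which carry the flavin and iron-sulfur centres, and the 29 supernumerary subunits around them had like medians, 0.55 and 0.54. No difference between complexes was tested.

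Among the core subunits, Ndufv2, which carries an iron-sulfur cluster at the NADH-oxidizing end, was the most abundant. It was at 93.8 CPM in the Input against 216, 145 and 103 CPM across IP 1 to 3. All 3 IP libraries lay above the Input, the lowest of them by little, and the log2 fold was 0.72 ± 0.54 (SE). Ndufs7, whose iron-sulfur cluster is the last before ubiquinone, was at 77.1 CPM in the Input against 83.3, 85.9 and 183 CPM across IP 1 to 3. Here IP 3 stood apart and the other IP libraries were close to the Input (log2 fold 0.61 ± 0.60). Ndufv1, which binds NADH and the flavin, had the closest IP levels of the core genes, at 46.9 CPM in the Input against 71.3, 66.2 and 72.4 CPM across IP 1 to 3.

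Of the supernumerary subunits, Ndufs5 had the highest fold. It was at 15.0 CPM in the Input against 44.5, 49.9 and 27.2 CPM across IP 1 to 3, all above the Input, with a log2 fold of 1.43 ± 0.89. Ndufs5 (GRCm38 chr4:123712710-123718202) has a near-identical copy, BC002163, over 319 bases, so its reads may be split or dropped. Ndufa2 had the next highest, at 28.9 CPM in the Input against 72.7, 94.7 and 44.7 CPM across IP 1 to 3 (log2 fold 1.29 ± 0.73), and shares 11.5% of its exon bases with Tmco6 on the other strand. Ndufa9, which sits at the ubiquinone-binding arm, was at 44.3 CPM in the Input against 72.8, 77.6 and 115 CPM across IP 1 to 3 (1.001 ± 0.64). These 3 genes shared the order of Input below every IP library but not the order among the IP libraries.

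The opposite side of complex I held a single gene. Ndufb9, a supernumerary subunit of the membrane arm, was at 75.9 CPM in the Input against 67.8, 60.8 and 61.0 CPM across IP 1 to 3. All IP libraries lay just below the Input and close together, and the log2 fold was -0.26 ± 0.61. It shares 28.6% of its exon bases with Gm49356 on the same strand. Ndufa1 and Ndufa10 had folds of -0.17 and -0.065 with IP libraries on both sides of the Input.

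Complex II, succinate dehydrogenase, which also works in the citric acid cycle and has no mitochondrially encoded subunit, was split between its genes. Sdha, the flavoprotein, was the most abundant at 283 CPM in the Input against 311, 320 and 464 CPM across IP 1 to 3, with a log2 fold of 0.37 ± 0.41. Sdhc, a membrane anchor, was at 75.5 CPM in the Input against 151, 81.7 and 96.4 CPM across IP 1 to 3 (0.54 ± 0.58). For both, every IP library lay above the Input, by 1 library more than by the others. Sdhb, the iron-sulfur subunit, had IP libraries on both sides (0.48 ± 0.62).

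Sdhd, the other membrane anchor, had the lowest fold of all genes of the pathway with a mean of at least 5 CPM. It was at 53.4 CPM in the Input against 23.1, 10.4 and 30.9 CPM across IP 1 to 3, from 891 counts in the Input and 529, 97 and 358 counts in the IP libraries. Every IP library lay well below the Input, and none overlapped it. The log2 fold was -1.32 ± 0.83, and its 95% interval of -3.06 to 0.43 holds 0. Sdhd (GRCm38 chr9:50596357-50603812, minus strand) shared no exon bases with another gene and had no near-identical copy. Its partner in the membrane, Sdhc, had the opposite sign; the difference between the 2 folds was not tested.

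**Figure D3:**
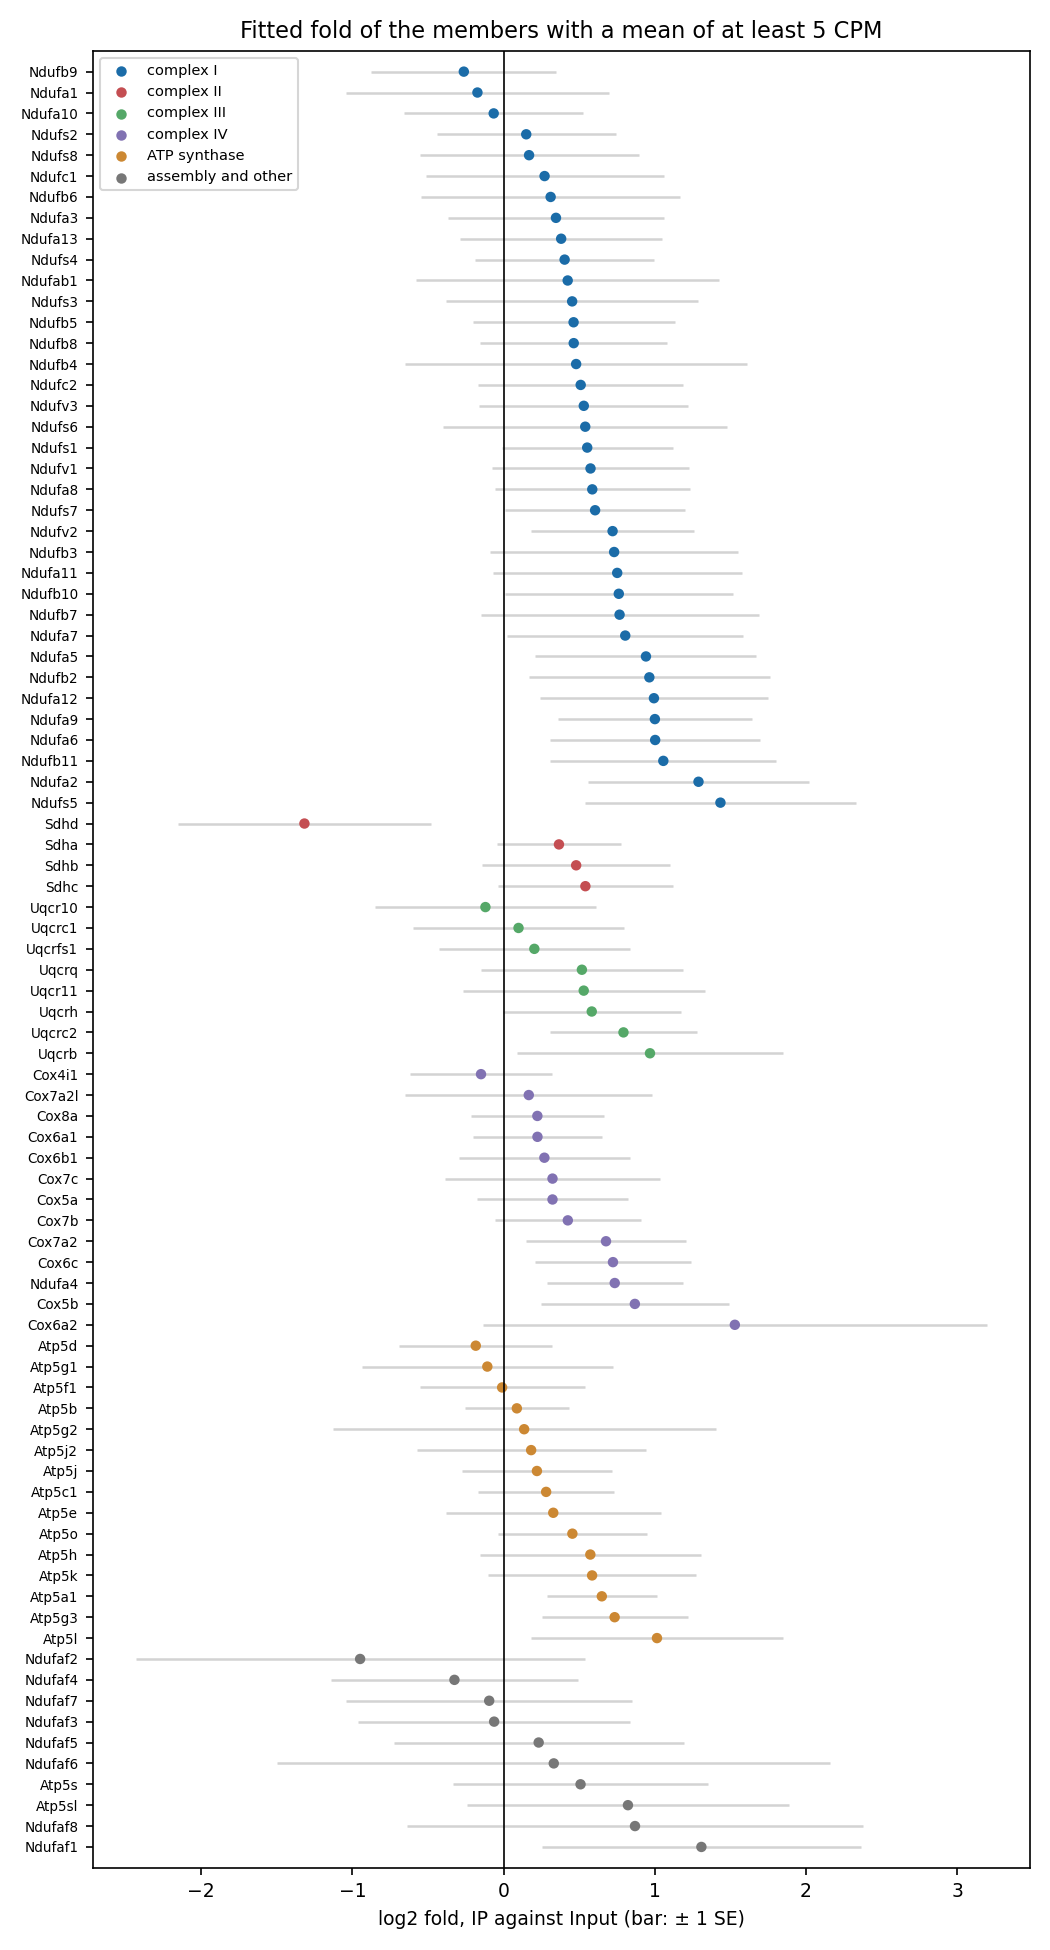
Fitted log2 fold of IP against Input (horizontal axis) with ± 1 SE for the 86 tested genes with a mean of at least 5 CPM, coloured by complex and ordered by fold within it. Most points lie right of 0 with bars that reach it, and Sdhd is the lowest at -1.32.

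Complex III, the cytochrome bc1 complex, had a median log2 fold of 0.52 over the 8 nuclear genes taken by symbol, with all IP libraries above the Input for 4 and below it for none. The median was 0.25 without IP 1, 0.31 with upper-quartile factors and 0.26 with library totals alone. Uqcrc2, a core protein facing the matrix, was the most abundant, at 159 CPM in the Input against 221, 409 and 198 CPM across IP 1 to 3. IP 2 stood apart from the other 2, and the log2 fold was 0.79 ± 0.49. Uqcrc2 shares 26.6% of its exon bases with the antisense gene Pdzd9, and the strand of counting is unknown. Uqcrh, the hinge protein, was at 70.2 CPM in the Input against 138, 104 and 73.9 CPM across IP 1 to 3 (0.58 ± 0.59). Uqcrb, a small ubiquinone-binding subunit, was at 20.6 CPM in the Input against 62.7, 29.6 and 28.7 CPM across IP 1 to 3 (0.97 ± 0.88), and has 3 near-identical copies. Uqcr10 was the lowest of the complex at 59.7 CPM in the Input against 89.5, 47.6 and 27.7 CPM across IP 1 to 3 (-0.12 ± 0.73). In Uqcrb and Uqcr10 alike IP 1 was far above the other IP libraries.

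Complex IV had a median log2 fold of 0.32 over 16 tested genes, with all IP libraries above the Input for 5 of them and below it for 1. The median was 0.18 without IP 1, 0.11 with upper-quartile factors and 0.060 with library totals alone. Its summed level was 1480 CPM in the Input against 2353, 2009 and 1485 CPM across IP 1 to 3, so IP 3 was at the Input's level. The 2 most abundant genes by count, Cox6a1 and Ndufa4, stood differently to the Input, though the difference between their folds was not tested. Cox6a1, the common form of a small regulatory subunit, was at 228 CPM in the Input against 293, 302 and 203 CPM across IP 1 to 3, on both sides of the Input (0.22 ± 0.43). Ndufa4, named for complex I but now counted as a complex IV subunit, was at 155 CPM in the Input against 319, 251 and 205 CPM across IP 1 to 3, all above it (0.74 ± 0.45). Cox4i1, the regulatory subunit that binds ATP, was at 158 CPM in the Input against 120, 161 and 147 CPM across IP 1 to 3, with a log2 fold of -0.15 ± 0.47. Cox7a2 was at 90.5 CPM in the Input against 153, 180 and 101 CPM across IP 1 to 3, all above the Input (0.68 ± 0.53). Cox6b1, Cox7b, Cox8a and the supercomplex factor Cox7a2l had log2 folds of 0.27, 0.42, 0.22 and 0.17.

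Several complex IV subunits come as a common form and a form restricted to muscle, lung, testis or other tissues. Most restricted forms had few counts. Cox4i2, the lung form, had 11 counts in the Input and 0, 4 and 0 in the IP libraries. Cox6b2, the testis form, had 10 counts in the Input and 0 in every IP library, where 0 counts allow up to 0.131, 0.321 and 0.259 CPM, and it was not tested. Cox7a1, the heart and muscle form, had 16 counts in the Input and 26, 4 and 0 in the IP libraries. Ndufa4l2, a hypoxia-responsive relative of Ndufa4, had 6 counts in the Input and 13, 18 and 14 in the IP libraries. The genes under the floor were Cox8b with 2 counts in the Input and 0 elsewhere, Cox8c with 0 in all, and Cox7b2 with 2, 1, 0 and 7. At these depths no difference between IP and Input could be read for any of them.

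Cox6a2, the heart and muscle form of Cox6a, which is also known from Pvalb interneurons, was the exception in level. It had 53 counts in the Input and 420, 24 and 77 in the IP libraries, or 3.18 CPM and 18.3, 2.57 and 6.64 CPM. IP 1 and IP 3 lay above the Input and IP 2 below it, so the groups overlapped (log2 fold 1.53 ± 1.67, and 0.51 without IP 1). As a share of all Cox6a counts it was 1.38% in the Input and 5.88%, 0.843% and 3.17% in the IP libraries. The 6 markers of the Pvalb class, Cox6a2 among them, summed to 391 CPM in the Input against 606, 667 and 736 CPM across IP 1 to 3, mostly through the potassium channel genes Kcnc1 and Kcnc2. These 2 lay above the Input in all 3 IP libraries (log2 folds of 1.09 ± 0.43 and 0.57 ± 0.45), and none of the 6 passed edgeR's test after adjustment (Kcnc1 had an unadjusted p of 0.0194). Pvalb itself was at 20.3 CPM in the Input against 2.22, 21.9 and 4.83 CPM across IP 1 to 3, and Syt2 and Tac1 likewise had IP libraries on both sides of the Input. The part of these cells in the Cox6a2 level was not tested. Markers of skeletal muscle summed to 7.62 CPM in the Input against 6.76, 1.82 and 4.40 CPM across IP 1 to 3. Cox6a2 (GRCm38 chr7:128205435-128206387) shares 10.3% of its exon bases with Itgad on the other strand.

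ATP synthase held the most abundant genes of the pathway and a median log2 fold of 0.28 over 15 genes, with all IP libraries above the Input for 6 and below it for none. The median was 0.055 without IP 1, 0.068 with upper-quartile factors and 0.012 with library totals alone. Atp5b, the catalytic beta subunit of the F1 head, was at 745 CPM in the Input against 828, 712 and 834 CPM across IP 1 to 3. The groups overlapped and the log2 fold was 0.088 ± 0.34, the smallest standard error of the pathway. With library totals alone as scaling it was -0.18. Atp5a1, the alpha subunit that alternates with beta in the head, was at 486 CPM in the Input against 851, 695 and 740 CPM across IP 1 to 3, all clearly above the Input. Its log2 fold was 0.65 ± 0.36, with a 95% interval of -0.11 to 1.41, the closest of the pathway to leaving out 0. The 2 proteins are present in equal numbers in the enzyme. Per base of exon, the Input held more Atp5b than Atp5a1 transcript (389 and 167 CPM per kb). So did the IP libraries on average (413 and 263 CPM per kb). The exon bases are those of all annotated transcripts of a gene merged, so the length can exceed that of the main transcript. Atp5d, the delta subunit of the central stalk, was at 144 CPM in the Input against 171, 95.6 and 113 CPM across IP 1 to 3 (-0.18 ± 0.51). Atp5l, subunit g of the membrane part, was at 24.1 CPM in the Input against 72.5, 45.2 and 28.0 CPM across IP 1 to 3 (1.01 ± 0.83), but has 9 near-identical copies.

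Subunit c, which forms the rotating ring in the membrane, is encoded by 3 genes, Atp5g1, Atp5g2 and Atp5g3, that give the same mature protein and differ in their import sequence. Atp5g3 was at 158 CPM in the Input against 377, 237 and 176 CPM across IP 1 to 3, all above the Input (log2 fold 0.73 ± 0.48). Atp5g1 was at 34.4 CPM in the Input against 37.7, 38.8 and 19.4 CPM across IP 1 to 3, and Atp5g2 at 10.2 CPM and 17.2, 8.13 and 8.28 CPM. Of the counts on the 3 genes, Atp5g3 took 78.0% in the Input (95% exact binomial interval 76.6% to 79.4%) and 87.3%, 83.4% and 86.4% in the IP libraries. Atp5g1 took 17.0% in the Input and 8.72%, 13.7% and 9.54% in the IP libraries, and Atp5g2 5.03% and 3.98%, 2.87% and 4.07%. The Atp5g3 share in every IP library lay above the Input's interval and the Atp5g1 share below it; these intervals cover counting error in a lone Input and not the spread between Inputs. Atp5g1 has a near-identical copy, Gm10039, over 411 bases, and Atp5g3 has none.

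**Figure D4:**
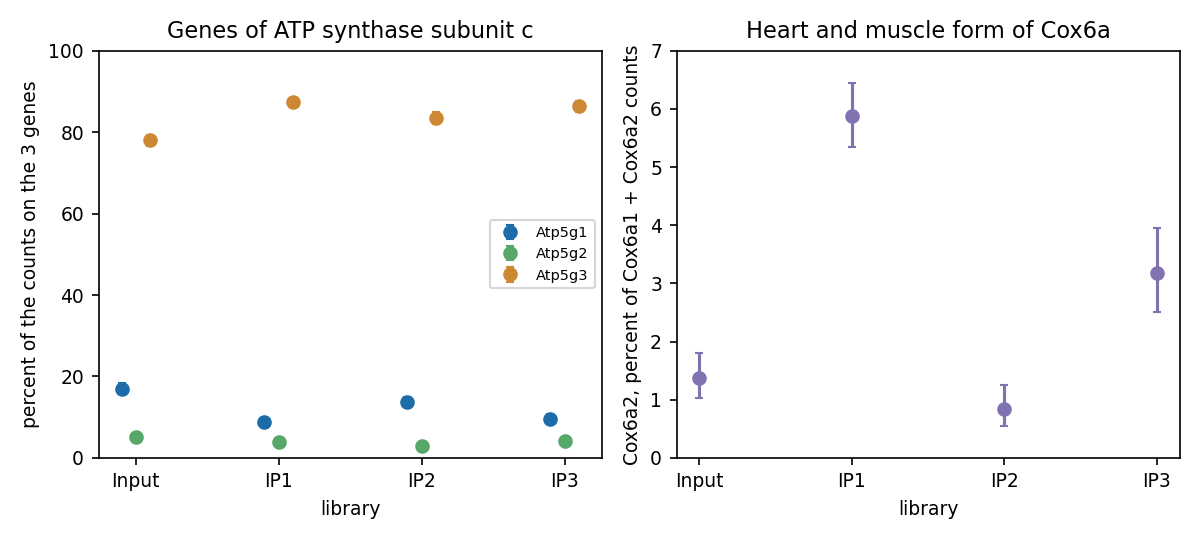
Left: percent of the counts on Atp5g1, Atp5g2 and Atp5g3 that each gene takes, by library. Right: Cox6a2 as a percent of Cox6a1 plus Cox6a2 counts; bars are 95% exact binomial intervals. Atp5g3 lies at 78.0% in the Input against 83.4% to 87.3% in IP, and Cox6a2 spans 0.843% to 5.88% among the IP libraries.

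The assembly factors and the Atp5s genes varied widely between the IP libraries. Their median log2 fold was 0.28 over 10 genes, but -0.32 without IP 1, and no gene lay above the Input in all 3 IP libraries. The medians of single libraries were 0.69, -0.53 and -0.32. Atp5s, a factor linked to the coupling of ATP synthase, was the most abundant at 29.1 CPM in the Input against 67.9, 27.7 and 28.5 CPM across IP 1 to 3, with only IP 1 above the Input. Ndufaf4 was at 40.7 CPM in the Input against 46.8, 32.5 and 18.0 CPM across IP 1 to 3 (-0.32 ± 0.82). Ndufaf1, which helps to build the membrane arm of complex I, had the highest fold, at 12.9 CPM in the Input against 26.6, 10.8 and 58.4 CPM across IP 1 to 3 (1.31 ± 1.06). Ndufaf2 had the lowest, at 10.4 CPM in the Input against 8.85, 1.71 and 5.60 CPM across IP 1 to 3 (-0.95 ± 1.49). At these levels the IP libraries differed from each other by more than their mean differed from the Input.

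How finely a difference could be seen was set by the level of a gene, the spread between the IP libraries and the lone Input. The fit shares that spread over genes, so a gene with close IP levels need not have a small standard error. The standard error of the log2 fold had a median of 0.71 over the 89 genes, and the highest IP level was more than 2 times the lowest for 48 of them. The 95% interval of the fold held 0 for all 89 genes, held a log2 fold of 1 for 85 and of -1 for 41, and lay wholly within -1 to 1 for 1 gene. For 85 genes, then, a doubling could not be told from no difference at this spread.

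Levels per length placed the genes in nearly the same order in Input and IP. Over the 90 genes, Spearman's rho between Input and mean IP level per kb of exon was 0.96. This is a correlation across genes, which are not independent replicates. Both levels are divided by the same exon length, which can add to the agreement. Highest in the Input were Cox6a1 at 399 CPM per kb, Atp5b at 389, Cox8a at 355, Ndufa4 at 249 and Atp5g3 at 218. In the IP libraries these were 466, 413, 414, 414 and 363 CPM per kb on average. Within complex I the order moved more at the top: Ndufb9 was rank 1 of 36 in the Input and rank 9 in the IP mean, and Ndufa2 went from rank 11 to rank 1.

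The genes are short, with a median exon length of 1011 bases against 3383 over all tested genes with a length. Of the 89, 60 were among the 1459 shortest tested genes (64 to 1353 bases), which had a median log2 fold of 0.13 and 16.9% above the Input in every IP library. The 60 had a median of 0.48. With the trend of fold on length removed, the median of the 89 was 0.36 against 0.0026 over all genes. Over all tested genes with a length, the fold also rose with the mean level (Spearman's rho 0.30, and 0.087 with exon length). That mean holds the IP levels that also enter the fold, so fold and mean level are not independent. Among the 89 genes rho was 0.035 with the mean level and -0.12 with length. The trend with level was not removed, and its part in the lean was not tested. Of the 90 genes, 13 shared at least 10% of their exon bases with a neighbour and 21 had near-identical copies elsewhere, 30 genes in all. The 59 without either had a median log2 fold of 0.46, and 23 (39.0%) lay above the Input in all 3 IP libraries.

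The size of the lean depended on the scaling. TMM gave medians of 0.46 for the 89 genes and 0.083 for all genes, upper-quartile factors 0.25 and -0.13, and library totals alone 0.19 and -0.19. The gap to all genes was 0.38 each time, since a scaling factor shifts all genes nearly alike. Settings that can move the gap gave 0.28 under a floor of 5 CPM on the mean, 0.21 without IP 1 and 0.61 with limma-voom. With library totals, 15 genes lay above the Input in every IP library (16.9%, against 12.1% of all genes), and with upper-quartile factors 20 (22.5%, against 13.4%). Under the floor of 5 CPM on the mean, 27 of 86 did so (31.4%, against 20.7% of all genes that met it). That floor also changed the TMM factors, which were computed from the genes kept. Complex I lost no gene under it, but 16 of its 36 genes lay above the Input in every IP library, against 22 without it. The medians of single libraries with totals alone were 0.49, -0.15 and -0.11 against -0.28, -0.38 and -0.34 for all genes. In IP 2 and IP 3, 53 and 57 of the 89 genes lay above the Input with TMM, and 32 and 39 with totals alone.

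**Figure D5:**
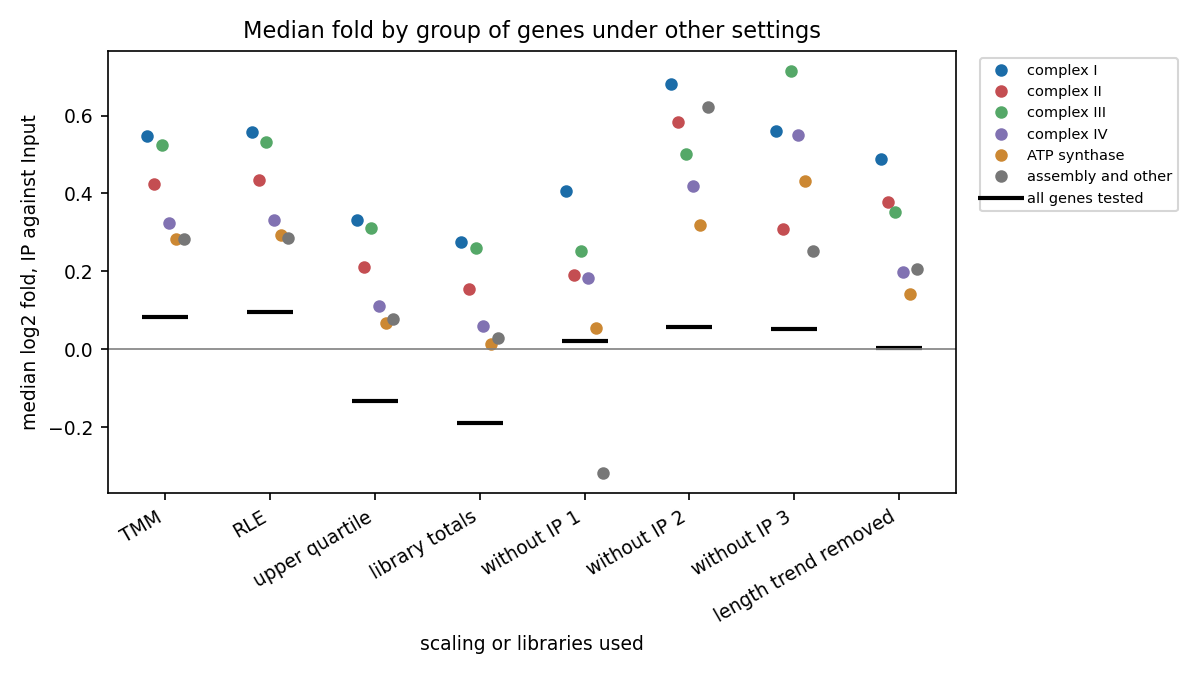
Median log2 fold of IP against Input (vertical axis) for each group of genes under 4 scalings, without each IP library in turn, and with the length trend removed; black bars are the medians of all tested genes. Every group lies above the bar of all genes in each setting except the assembly genes without IP 1, at -0.32.

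Other genes of mitochondria and of energy metabolism, glycolysis among them, outside the symbols above, were taken from 7 lists. Of 188 tested genes, none passed the test by edgeR, DESeq2 or limma-voom, and 2, 3 and 2 had an unadjusted p under 0.05. All 3 IP libraries lay above the Input for 43 of the 188 (22.9%), near the 19.7% of all genes. Their pooled median log2 fold was 0.22. By list, median log2 folds were 0.34 for 13 carriers and channels of mitochondrial membranes, 0.29 for 38 other assembly factors, 0.25 for 76 genes of the mitochondrial ribosome, 0.22 for 19 regulators of mitochondrial biogenesis, 0.19 for 18 citric acid cycle genes, 0.17 for 17 glycolysis genes and -0.12 for 7 genes of electron carriers and complex III. Genes encoded by mitochondrial DNA were not analysed here. Cyc1, cytochrome c1 of complex III, was at 85.8 CPM in the Input against 100.2, 99.97 and 80.6 CPM across IP 1 to 3. Cycs, the mobile carrier, had 34.8 CPM in the Input against 133, 21.3 and 34.6 CPM across IP 1 to 3, with IP 1 far above the rest. Vdac1 and Slc25a3, the outer-membrane channel and the phosphate carrier, lay above the Input in all 3 IP libraries (0.57 ± 0.42 and 0.39 ± 0.40), as did Mdh2 of the citric acid cycle (0.48 ± 0.42). The glycolytic genes Aldoa and Eno2 had log2 folds of 0.26 and -0.15.

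Of the 19 tested regulators, 1 (5.26%) had an unadjusted p under 0.05, near the 4.44% of all genes. It was Ppargc1a, which encodes PGC-1α, the coactivator known to drive genes of oxidative phosphorylation, and was at 191 CPM in the Input against 598, 365 and 327 CPM across IP 1 to 3. Every IP library lay above the Input, and the log2 fold was 1.17 ± 0.45 (edgeR adjusted p = 0.794, unadjusted p = 0.0175). Esrrb had the highest fold of the list (1.29 ± 2.27), at 1.74 CPM in the Input against 0.0872, 7.91 and 4.83 CPM across IP 1 to 3, on both sides of the Input. The factors whose letters were searched in the promoters had log2 folds of 0.071 (Nrf1), 0.10 (Gabpa) and -0.55 (Yy1), with IP libraries on both sides of the Input for Nrf1 and Gabpa. Nrf1 was at 12.2 CPM in the Input against 23.8, 5.67 and 8.97 CPM across IP 1 to 3, Gabpa at 34.2 CPM and 26.8, 38.0 and 45.5 CPM, and Yy1 at 34.1 CPM and 28.9, 14.6 and 26.5 CPM. Esrra, a partner of PGC-1α, was at 9.17 CPM in the Input against 4.75, 0.962 and 1.12 CPM across IP 1 to 3 (-2.00 ± 1.71), and Tfam, which packages mitochondrial DNA, had a fold of -0.28 ± 0.91.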

How the data were processed

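The authors deposited raw counts per gene, with a table for each library that lists Entrez identifiers and symbols, per the file headers. The submitters' processing notes name STAR 2.0.0e, HTSeq (no version) and mm10; the tables' names also hold the word subread, so the counter is not settled. Annotation, strand setting and handling of multimapping reads: not given in the sources used here.

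The 9 genes without a symbol (at most 0.0221% of counts) were left out. In R 4.3.3, edgeR 4.0.16 kept 14628 genes (filterByExpr, minimum count 10), scaled libraries by TMM and tested IP against Input by its quasi-likelihood F test, two-sided, with Benjamini-Hochberg adjustment over all genes kept and a threshold of 0.05. Since the Input has no replicate, the spread comes from the 3 IP libraries alone, and the same spread is assumed for the Input. With 2 residual degrees of freedom and a prior of 17.0, a gene's spread rests mostly on that shared over genes. The biological coefficient of variation was 0.787. The SE of a log2 fold is the fold over the square root of its F. The scripts were tested on simulated data.

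Gene spans, exon lengths and overlaps came from GENCODE on GRCm38, and near-identical copies from transcript matches of at least 200 bases and 95% identity. The exon length of a gene is that of its annotated exons merged over transcripts. Promoter windows are RefSeq's.

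The genes and lists were chosen with earlier results of these data known. Named were the 2 most abundant genes and the highest and lowest folds of each complex (mean of at least 5 CPM), all genes with tissue-restricted or duplicated forms, genes the low-count filter removed, Crh, and of each further list the 2 most abundant and a few fixed regulators. A gene that this rule takes is not reported here. Other genes, among them Ndufa1, Ndufa2, Ndufa9, Ndufa10, Ndufv1, Sdhb, Yy1, Esrrb, Pvalb and the other Pvalb-class markers, were chosen after their values were seen. Alternatives were DESeq2 1.42.0, limma-voom (limma 3.58.1), other scalings and filters, and each IP library left out.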

Additional observations from a re-analysis of the deposited data

How the results depend on the processing

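No gene of the pathway passed the test under any alternative run. Their median log2 fold stayed positive in all of them, lowest with library totals alone (0.19) and without IP 1 (0.23), highest without IP 2 (0.59). Genes above the Input in every IP library numbered 39, but 20 with upper-quartile factors and 15 with library totals alone. Under a floor of 5 CPM on the mean, which also recomputed the TMM factors, there were 27 such genes. They numbered 23 among the 59 genes without copies or shared exons, a subset chosen after seeing the data (fewer genes counted). Leaving out an IP library gave 39 to 52, but fewer IP libraries then had to lie above the Input. These were 44.3% to 59.1% of the tested genes of the pathway, against 27.7% to 28.5% of all genes. Over all genes, 68 calls became 108 with no low-count filter, 181 with DESeq2, 39 at an adjusted p under 0.01 and 90 to 211 without 1 IP library (211 without IP 1, 105 without IP 2), of which the cause was not tested; the split of calls up and down was 61 and 7, and 50 and 15 with library totals alone. The median of the further lists pooled, 0.22, was 0.0072 with upper-quartile factors and -0.048 with library totals alone. Crh lost its call with limma-voom (7.73, adjusted p = 0.425), and its adjusted p was at most 5.95e-04 elsewhere. Folds near 0 changed sign. With library totals alone these were Atp5b (-0.18), Atp5g2 (-0.13), Cox6a1 (-0.048), Cox6b1 (-0.0053), Cox7a2l (-0.10) and Cox8a (-0.046). With upper-quartile factors they were Atp5b (-0.13), Atp5g2 (-0.075) and Cox7a2l (-0.046), and under a floor of 5 CPM on the mean Atp5b (-0.023). With an IP library left out the folds ranged from -0.33 to 0.32 for Atp5g2 and -0.070 to 0.73 for Atp5s (both lowest without IP 1), and from -0.27 to 0.15 for Atp5g1, -0.12 to 0.37 for Cox7a2l and -0.69 to 0.20 for Uqcr10 (sign changed without IP 3). No paired analysis was possible because a single Input library allows at most 1 pair, and the labels do not say whether it came from the homogenate of an IP library.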

Other observations

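Among the assembly factors outside the symbols used, Cox14, which helps to assemble complex IV, was at 41.2 CPM in the Input against 308, 90.5 and 40.8 CPM across IP 1 to 3. IP 1 and IP 2 lay above the Input and IP 3 at its level, with a log2 fold of 1.83 ± 0.83 (edgeR adjusted p = 0.999992, unadjusted p = 0.0392, the only one under 0.05 of 38 in its list). Ttc19, which works in the assembly of complex III, and Atpif1, the inhibitor of ATP synthase, were the most abundant of the list and lay above the Input in all 3 IP libraries, with log2 folds of 0.94 ± 0.50 and 0.74 ± 0.54.

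The final steps of glycolysis showed folds of both signs. Pkm, pyruvate kinase, was at 259 CPM in the Input against 364, 422 and 403 CPM across IP 1 to 3 (log2 fold 0.61). Ldhb, the lactate dehydrogenase form known for turning lactate to pyruvate, was at 231 CPM in the Input against 361, 261 and 264 CPM across IP 1 to 3 (0.36), all above the Input. Ldha, the other form, was at 199 CPM in the Input against 135, 130 and 120 CPM across IP 1 to 3 (-0.63), all below it. Aldoc, an aldolase known from astrocytes, was at 303 CPM in the Input against 148, 208 and 184 CPM across IP 1 to 3 (-0.75). None of these passed edgeR's test after adjustment or had an unadjusted p under 0.05, and they were chosen after their values were seen.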
